A study of Bos taurus with 40 samples.

Results

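The transcripts described here are 69 hepatic genes that were low in feed-restricted Holstein Friesian bulls. Their mean of log2(normalised value + 1) was at least 1 below that of bulls fed ad libitum. They were chosen by their measured values at the end of restriction, among 12150 genes with a normalised value at that time. For each gene, d1 is the mean of log2(value + 1) over the restricted animals minus that over the ad libitum animals in Period 1, and d2 is the same difference in Period 2. A gene was a member when d1 was at most -1 and its mean over all 40 animals was below 1000 CPM (the read count as a share of all reads on genes, times 1e6). Of 73 genes with d1 at most -1, 2 exceeded the CPM limit and 2 are among 12 identifiers that the selection set aside. The question is how fully each member returned to the level of ad libitum animals once feed was again unrestricted.

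Liver RNA was sequenced from 40 male animals, 10 in each of 4 groups, all on a diet of 70% concentrate and 30% grass silage. RES Period 1 animals had received a restricted allowance for 125 days, set for a gain of 0.6 kg per day. RES Period 2 animals had completed that restriction and then 55 days of re-alimentation with feed ad libitum. ADLIB Period 1 and ADLIB Period 2 animals had feed ad libitum throughout and were sampled on the same days. The study's methods describe slaughter at each sampling, so that animals of Period 1 and Period 2 differ, whereas one text of the labels describes 20 bulls. Period 2 was taken as a separate set of animals.

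The liver of a ruminant makes nearly all of the animal's glucose, since little sugar passes the rumen, and it handles the propionate, amino acids and lipids that arrive from the gut. Feed restriction lowers that supply, and the organ itself shrinks with the lower metabolic load. When feed is restored, cattle can grow faster than animals that were never restricted, a response called compensatory growth, and the liver regains mass during it. The files give Ensembl identifiers without gene symbols, and 0 of the 69 members matched the reference table of names. Functions of the members, the marker genes of hepatocytes and other liver cells, and their sequences were therefore not analysed here, and the liver label was not checked against markers. Members are referred to by their rank in d1, where rank 1 has the lowest d1, and 4 are given by identifier. In a piece of whole liver, fewer cells of a type and less RNA per cell cannot be told apart.

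In Period 1 the selected difference ran from -3.05 at rank 1 to -1.0003 at rank 69, with a median of -1.21. At most -2 was reached by 9 members and at most -1.5 by 19, and the others lay between -1.5 and -1. In 18 of the 69 members every RES animal lay below every ADLIB animal, which held for 0.321% of all genes in that period. That share describes the selection and is no result. Mean abundance over all animals ranged from 1.46 to 732 CPM, with a median of 17.3 CPM.

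Membership near the limits rested on small differences. The last 3 members had d1 of -1.0007, -1.0007 and -1.0003. The first 3 genes outside had -0.9973, -0.9927 and -0.989. The most abundant members had means of 589 and 732 CPM, and the 2 genes beyond the CPM limit had 1074 and 2137 CPM.

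The strongest reductions in Period 1 were nearly complete separations of the diets. The gene of rank 1 (d1 -3.05) had normalised values, which are reads on the scale of CPM of the scaled library, from 6.21 to 60.1 with a median of 17.9 in RES animals. Its ADLIB values in Period 1 ran from 64.8 to 257 with a median of 186. The highest RES animal thus stood just under the lowest ADLIB animal. Rank 2 (d1 -2.79) ran from 4.64 to 31.4 with a median of 19.6 in RES and from 79.3 to 273 with a median of 128 in ADLIB. Rank 3 (d1 -2.59) ran from 0.637 to 3.48 with a median of 2.04 in RES and from 11.7 to 30.2 with a median of 15.6 in ADLIB. For both of these genes the groups were far apart, with no animal of either diet in the gap. Rank 5 (d1 -2.43) was scarce under both diets and also separated, from 0.148 to 2.54 with a median of 1.15 in RES and from 3.46 to 20.2 with a median of 9.90 in ADLIB.

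The gene of rank 4, ENSBTAG00000013928 (d1 -2.49), was the only one of the first 5 whose groups overlapped in Period 1. Its RES values ran from 0.00 to 16.0 with a median of 0.789, and 9 of 10 RES animals were under 3. Its ADLIB values ran from 1.96 to 43.7 with a median of 10.6. The single RES animal at 16.0 was well above the next at 2.81, and without it d1 was -2.82.

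**Figure D1:**
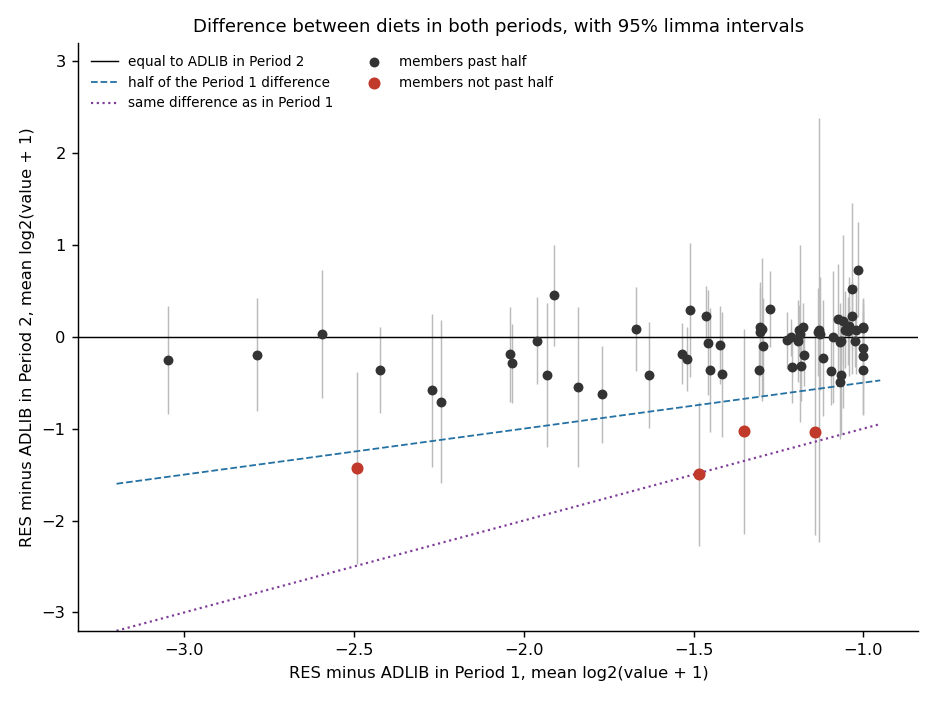
Each of the 68 members with a Period 2 value is placed by its RES minus ADLIB difference in Period 1 (horizontal axis) and in Period 2 (vertical axis), both as mean log2(value + 1), with the 95% limma interval of the latter as a grey bar. Most points sit near the line of equality with ADLIB, those of the first 10 ranks mostly a little below it (median -0.27), and the 4 points in red lie below the dashed line of 50% return.

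After re-alimentation the members as a group stood close to the ADLIB level. A Period 2 value was listed for 68 of the 69. Their median d2 was -0.05, with quartiles of -0.36 and 0.08, while the median over all 12305 genes of the Period 2 table was 0.01, with quartiles of -0.10 and 0.12. Below the ADLIB mean were 41 members and above it 27, so that 60.3% were below, against 48.4% of all genes. The centre of the members was therefore near 0, with a longer tail on the low side.

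The return of a member was taken as 1 minus d2 divided by d1, so that 100% is the ADLIB level and 0% is the difference of Period 1. The median return was 95.3%, with quartiles of 74.96% and 107%. A return under 50% was seen in 4 members, 50 to 75% in 13, 75 to 100% in 24, and 100% or more in 27. Since d1 is the value that chose the members, these shares describe them and were not tested. The 95% limma interval of d2 lay wholly above 0.5 of d1 in 41 of 68 members, included it in 27 and lay wholly below it in 0. The interval lay above d1 itself in 62 members. These counts take d1 as fixed, without its own error. As d1 was the selecting value, they describe the members and are no test of return. The distance from d2 to either end of the interval had a median of 0.51 and ran from 0.20 to 2.31, so that a remaining difference smaller than this was not detectable in a typical member at 10 against 10 animals.

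In the edgeR quasi-likelihood test of Period 2, fitted across all 12202 genes that had no animal under 4 reads, 0 of the 65 members tested passed an FDR under 0.05 with the fold change cut-off of the study's methods. The background was 0% of all genes, and the lowest FDR over all genes was 0.190, so that this fit set no gene apart. The study itself reported differentially expressed genes in Period 2 with edgeR and tagwise dispersions, so that the 0 belongs to this fit. The edgeR exact test, run here with tagwise dispersions too, passed 53 of the 12202 genes. At an unadjusted p under 0.05, 4 members (6.15%) were lower in RES against 5.7% of all genes, and 1 member (1.54%) was higher against 7.12%. The share of lower members was near the background and says nothing particular about them. The limma fit of the 68 members gave 5 lower, against 5.47% of all genes, and 1 higher, against 6.03%, and 3 of the 5 were also counted by edgeR. Of the 4 members that were not tested for lack of reads in some animals, 3 had a listed Period 2 value, and rank 40 had none. From its counts and the scaling of each animal, rank 40 ran from 0.00 to 4.10 with a median of 1.21 among RES animals and from 0.00 to 5.07 with a median of 0.238 among ADLIB animals, so that it was near the limit of detection in both. DESeq2 and the edgeR exact test each passed 1 member at the FDR threshold, where 0.426% and 0.434% of all genes passed.

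By size alone, a low d2 was more frequent among the members than among genes in general. A d2 of at most -0.5 was seen in 8 of 68 members (11.8%) and in 0.91% of all genes, and a d2 of at least 0.5 in 2 members (2.94%) and in 1.19% of all genes. Animals of 1 group also differed more from each other in these genes. The median SD of log2(value + 1) among RES animals of Period 2 was 0.59 over the members and 0.26 over all genes, and among ADLIB animals of Period 2 it was 0.63 and 0.26. Above the all-gene median were 66 of 68 members in RES and 65 in ADLIB. The part of this wider spread in the larger d2 values was not tested. In Period 2 every RES animal lay below every ADLIB animal in 0 members, and in 0% of all genes.

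**Figure D2:**
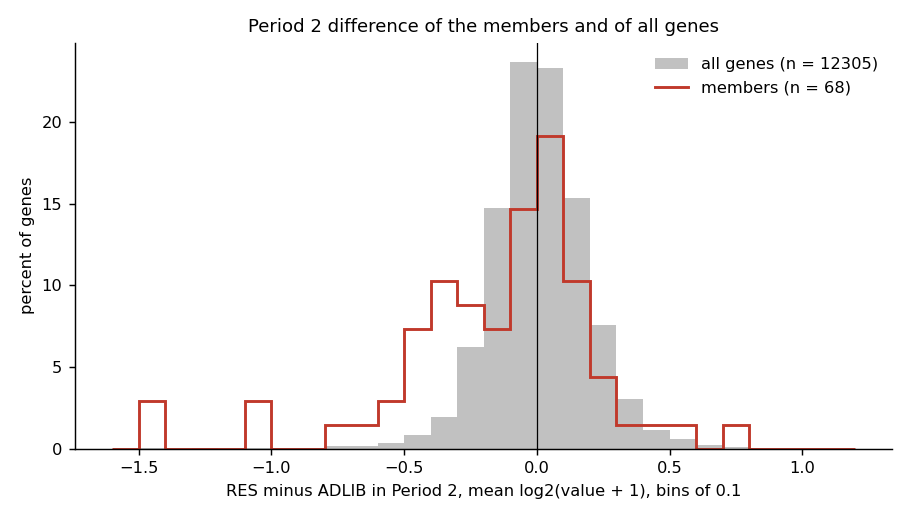
The RES minus ADLIB difference in Period 2 (horizontal axis, mean log2(value + 1), in bins of 0.1) is shown as the percent of genes (vertical axis) for all 12305 genes in grey and for the 68 members as a red outline. Both centre near 0, at medians of 0.01 and -0.05, and the outline of the members reaches further down, to -1.49.

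The 10 members with the lowest d1 (median -2.35) had a median d2 of -0.27 and a median return of 88.2%, and 1 of the 10 was above the ADLIB mean in Period 2. Ranks 11 to 30 (20 members, median d1 -1.47) had a median d2 of -0.21 and a median return of 86.0%, with 7 above the ADLIB mean. Ranks 31 to 69 (38 members with a value, median d1 -1.07) had a median d2 of 0.01 and a median return of 101%, with 19 above the ADLIB mean. The median remainder on the log2 scale was thus larger in ranks 1 to 10 and 11 to 30, which were close to each other, than in ranks 31 to 69. Even in ranks 1 to 10 most of the difference was gone at the median. The classes were made by d1, the value that chose the members, so this order is a description and was not tested.

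The scarcest members had the lowest median return. The 22 members under 10 CPM had a median return of 82.2%, the 35 members between 10 and 100 CPM one of 95.7%, and the 11 members above 100 CPM one of 95.2%. Returns in the last of these classes were 74.7% or more in every member, whereas the classes below it reached down to 9.33% and -0.617%. The intervals of d2 were also wider at low abundance, reaching a median of 0.63 to either side under 10 CPM and 0.42 above 100 CPM. On the log2(value + 1) scale the difference of a scarce gene is understated.

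Of the first 5 ranks, all but rank 4 had a return of 85.1% or more, although their remaining differences were known only loosely. The gene of rank 1 ran from 54.3 to 220 with a median of 104 in RES animals of Period 2 and from 79.7 to 449 with a median of 117 in ADLIB animals. Its d2 was -0.25 (95% limma interval -0.84 to 0.34) and its return 91.8%. With 1 animal left out this d2 ran from -0.35 to -0.06, the latter without ADLIB replicate 4. The RES and ADLIB animals, which had been apart in Period 1, now overlapped for most of their range, with 2 of 10 RES animals below the lowest ADLIB animal. Rank 2 ran from 43.9 to 174 with a median of 64.5 in RES and from 38.4 to 229 with a median of 92.7 in ADLIB, a d2 of -0.19 (-0.81 to 0.42). It moved to -0.48 with the median over the animals, to -0.42 within library-name numbers and to -0.35 with these numbers as a block, and to -0.04 without ADLIB replicate 4. The size of what remained in rank 2 thus depended on how it was summarised, while its groups overlapped throughout. Rank 3 ran from 2.96 to 27.8 with a median of 9.72 in RES and from 2.54 to 18.0 with a median of 11.0 in ADLIB, a d2 of 0.03 (-0.66 to 0.73). Rank 3 was not separable from ADLIB in either direction, since its interval included 0, as did those of ranks 1, 2 and 5. The sign of d2 in rank 3 also turned with single animals left out. Rank 5 ran from 1.63 to 9.96 with a median of 5.06 in RES and from 4.80 to 11.9 with a median of 5.90 in ADLIB. Its d2 was -0.36 (-0.83 to 0.11), and 5 of 10 RES animals were below the lowest ADLIB animal. It was -0.57 within library-name numbers, -0.63 with these numbers as a block, -0.19 with the median over the animals and -0.20 with a pseudocount of 5. With 1 animal left out it ran from -0.46 to -0.23, the latter without RES replicate 5.

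The member with the lowest d2, ENSBTAG00000038748 (rank 20), also had the lowest return. In Period 1 it had run from 0.103 to 9.28 with a median of 1.49 in RES and from 2.26 to 34.2 with a median of 6.59 in ADLIB, a d1 of -1.48. In Period 2 it ran from 1.05 to 7.61 with a median of 3.16 in RES and from 2.94 to 33.8 with a median of 9.89 in ADLIB. The d2 was -1.49 (95% limma interval -2.28 to -0.71), as large as the Period 1 difference, and the return was -0.617%. All 10 RES animals were below the ADLIB median and 5 were below the lowest ADLIB animal, although the groups still overlapped. The edgeR quasi-likelihood log2 fold change was -1.99 with an unadjusted p of 0.00039 and an FDR of 0.190. This was the member that passed under the other 2 count tests, at an FDR of 0.0172 by DESeq2 and 0.00256 by the edgeR exact test. Within the numbers 1 to 4 that open the library names, its mean difference was -1.12. As mean log2(CPM + 1) with all 40 libraries scaled together, its RES mean was higher in Period 2 than in Period 1 by 0.36. Its ADLIB mean was higher by 0.35, so that the RES level rose while the difference between the diets stayed.

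ENSBTAG00000013928 (rank 4) returned by 42.7%. In Period 2 its RES values ran from 0.613 to 22.8 with a median of 2.09, and its ADLIB values ran from 1.71 to 26.6 with a median of 11.5. Its d2 was -1.43 (95% limma interval -2.47 to -0.39). The RES animals were unequal, since 7 of the 10 remained under 3 and the other 3 lay between 6.60 and 22.8, within the ADLIB range. The edgeR quasi-likelihood FDR of this gene was 0.407 and the limma FDR was 0.318.

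The genes of ranks 43 and 26 were chosen for description after their values were seen because they are the other members under 50%. Rank 43 (d1 -1.14, d2 -1.04, interval -2.16 to 0.08) spanned 12.8 to 127 among RES animals and 17.3 to 403 among ADLIB animals in Period 2. Values above 100 were found in 5 of 10 ADLIB animals and in 1 of 10 RES animals. With 1 animal left out its d2 ran from -1.28 to -0.79, and 9 of 10 RES animals were below the ADLIB median. Its edgeR quasi-likelihood p was 0.0269 before and 0.340 after adjustment. Its ADLIB values in Period 1 were 288 and 296 in 2 animals and 77.2 or less in the other 8. As mean log2(CPM + 1) with all 40 libraries scaled together, its RES mean was higher in Period 2 than in Period 1 by 0.76. Its ADLIB mean was higher by 0.67, so that the low return is not a RES level that stayed the same. Rank 26 (d1 -1.35, d2 -1.03, interval -2.15 to 0.09) was at 0.00 in RES replicate 9, and the next RES animal was at 7.35, while ADLIB animals ran from 28.9 to 78.2. Without that animal its d2 was -0.53, which is above 0.5 of d1. This gene was left out of the edgeR fit for that animal's 0 reads.

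**Figure D3:**
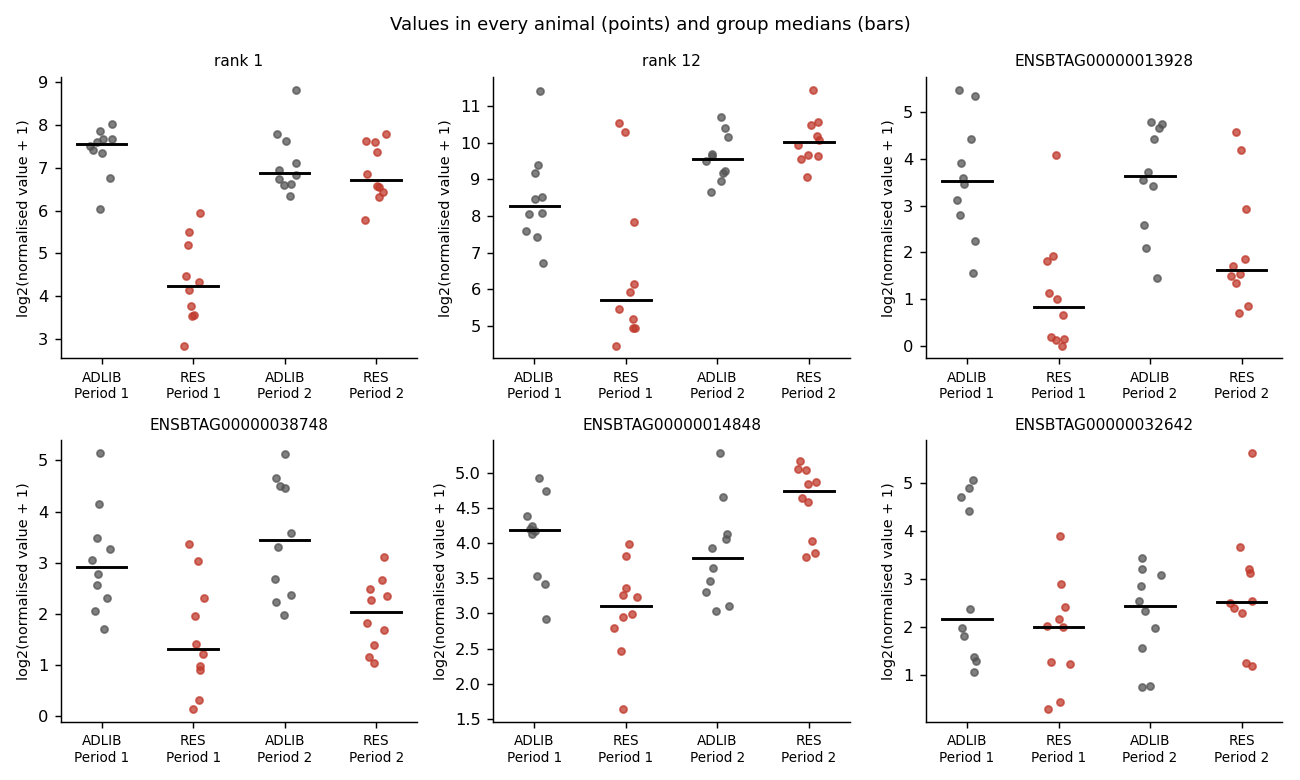
The members of ranks 1, 12, 4, 20, 64 and 61 are shown as log2(normalised value + 1) in each of the 10 animals of the 4 groups (points) with the group median (bar), ADLIB in grey and RES in red. The genes of ranks 1 and 12 rejoin the ADLIB animals in Period 2, the gene of rank 20 (ENSBTAG00000038748) keeps a RES median of 3.16 against 9.89 in ADLIB, and ENSBTAG00000014848 lies higher in RES in Period 2.

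At the other end, ENSBTAG00000014848 (rank 64) had the highest d2. In Period 1 it ran from 2.12 to 14.9 with a median of 7.67 in RES and from 6.54 to 29.3 with a median of 17.2 in ADLIB, a d1 of -1.01. In Period 2 it ran from 12.9 to 34.8 with a median of 25.8 in RES and from 7.19 to 37.8 with a median of 12.9 in ADLIB. The order of the diets was thus turned, with 0 of 10 RES animals below the ADLIB median, but the RES values stayed inside the ADLIB range. Its d2 was 0.73 (95% limma interval 0.21 to 1.246) and its return 172%. The edgeR quasi-likelihood p was 0.0274 before and 0.342 after adjustment, and the mean difference within library-name numbers was 0.31. This gene was the 1 member counted as higher at an unadjusted p under 0.05 in that test. No member was counted as higher with the library-name block or with the share of reads on genes as covariate. The same held without ADLIB replicate 7 and without RES replicate 9.

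ENSBTAG00000032642 (rank 61) had the next highest d2, 0.52 (95% limma interval -0.41 to 1.46), and this rested on 1 animal. Its RES values in Period 2 ran from 1.30 to 48.0 with a median of 4.74, and the next highest was 11.7. Its ADLIB values ran from 0.686 to 9.86 with a median of 4.42. The medians of the diets were nearly the same. Without RES replicate 9, the animal at 48.0 and also the one at 0.00 in rank 26, the d2 was 0.21. In Period 1 this gene had 4 ADLIB animals between 20.4 and 32.5 and 6 between 1.09 and 4.17, and its RES animals ran from 0.232 to 13.8. The medians were 3.04 in RES and 3.55 in ADLIB, closer than the d1 of -1.03. Its edgeR quasi-likelihood FDR in Period 2 was 0.484.

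The deposited values were scaled within each period, so levels were set across periods on CPM with TMM factors from all 40 libraries, as mean log2(CPM + 1). On that scale the mean of the RES animals was higher in Period 2 than in Period 1 in all 69 members, with a median difference of 0.92 and a range of 0.00 to 3.37. The difference was 0.5 or more in 61 members and 1 or more in 32. Over the 12063 genes in both tables the median was 0.02, and 5.34% of genes were at 0.5 or more. The animals of Period 1 chose the members, so this is a description without a test.

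The ADLIB animals were also not at the same level in the 2 periods. Their mean was lower in Period 2 in 53 of the 69 members, with a median difference of -0.24 against -0.00 over the genes in both tables. A difference of -0.5 or less was seen in 19 members, against 1.08% of the genes in both tables. Because the members were chosen partly for a high ADLIB level in Period 1, that too is no independent result. In 9 members the ADLIB mean was lower by at least as much as the RES mean was higher. One of these, rank 38, singled out after its values were seen, had RES means of 5.13 and 5.28 in the 2 periods and ADLIB means of 6.31 and 5.26.

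**Figure D4:**
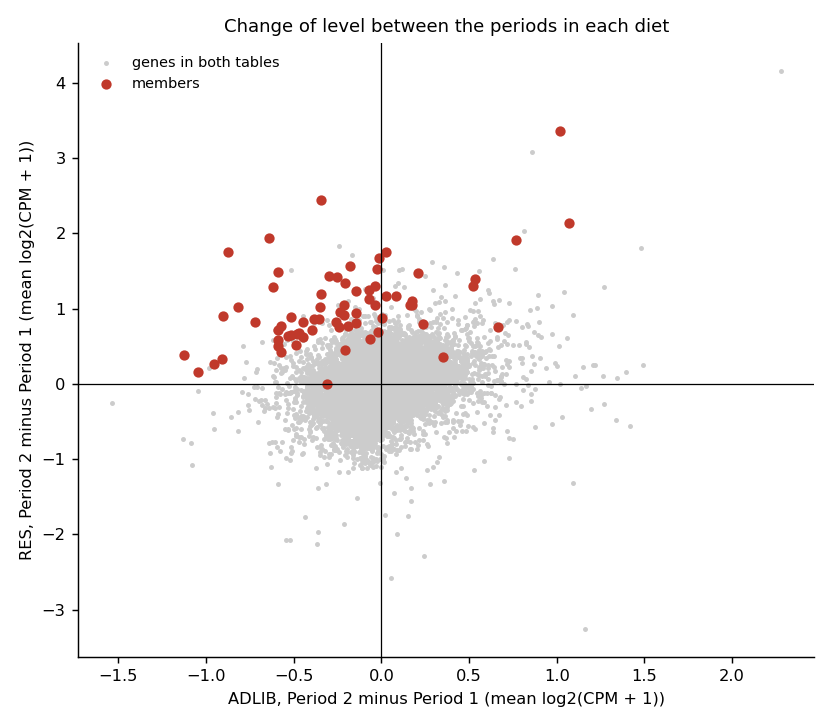
The Period 2 minus Period 1 difference of mean log2(CPM + 1) is shown for ADLIB (horizontal axis) and RES (vertical axis), for the genes in both tables in grey and the 69 members in red. All members lie at or above 0 on the RES axis (median 0.92), and 53 of them lie left of 0 on the ADLIB axis (median -0.24).

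In 16 of the 69 members the means of both diets were higher in Period 2. The ADLIB mean was higher by 0.5 or more in 6 members, against 2.00% of the genes in both tables, and of these rank 12, the most abundant member, and rank 49 exceeded 1. In rank 12 the ADLIB mean of log2(CPM + 1) was 8.54 ± 1.30 (SD, n = 10) in Period 1 and 9.56 ± 0.64 in Period 2. The RES mean went from 6.63 ± 2.23 to 10.0 ± 0.68. The RES mean of Period 2 was thus also above the ADLIB mean of Period 1. The low RES level of this gene in Period 1 was that of 7 animals between 21.1 and 69.6, while the other 3 lay between 226 and 1492, inside the ADLIB range of 105 to 2743. In Period 2 its RES values ran from 529 to 2774 and its ADLIB values from 403 to 1648, a d2 of 0.45 (95% limma interval -0.10 to 1.00).

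Values were also summed up by animal. The median over the members of log2(value + 1) relative to the ADLIB mean ran from -1.69 to -1.17 in RES animals of Period 1 and from -0.32 to 0.26 in ADLIB animals of Period 1. In Period 2 it ran from -0.37 to 0.37 with a median of -0.20 in RES animals and from -0.23 to 0.30 with a median of 0.01 in ADLIB animals. The Period 1 values follow from the choice of the members. In Period 2, 7 of 10 RES animals were below 0, compared with 4 of 10 ADLIB animals, and the ranges of the diets overlapped.

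Some members varied among animals in ways that the diet did not divide. The gene of rank 45, singled out after its values were seen, was under 1 in 18 of the 40 animals, at 0.754 or less, and at 14.1 or more in the other 22, with no animal between. Animals under 1 numbered 5 of 10 in RES and 3 of 10 in ADLIB in Period 1, and 5 of 10 in each diet in Period 2. Its d1 was -1.13. Its d2 was 0.08 with the widest interval of the members, -2.23 to 2.38.

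A few pairs of members varied together from animal to animal. Among the 68 members with a Period 2 value, 3 of 2278 pairs had a Pearson correlation over 0.8 between their deviations from the group mean in Period 1, and those pairs were then measured over the 20 animals of Period 2. The pair of ranks 2 and 8 had r = 0.85 and Spearman's rho = 0.87 (permutation p within diets 2e-05 for each, adjusted p 3e-05). Without the 2 farthest animals r was 0.84, and it was 0.83 in ADLIB and 0.88 in RES animals alone. These 2 genes returned to a like extent, with d2 of -0.19 in each.

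The pair of ranks 7 and 11 had r = 0.96 and rho = 0.94 in Period 2 (permutation p 1e-05, the smallest that 100000 permutations can give, adjusted p 3e-05). Without the 2 farthest animals r was 0.92, and it was 0.99 in ADLIB and 0.92 in RES animals alone. Their d2 values were -0.71 and -0.41. A single RES animal of Period 2 held the highest value of both genes. The third pair, ranks 12 and 49, had r = 0.89 in Period 1 but 0.49 in Period 2 (permutation p 0.035, adjusted p 0.035), with rho = 0.53 (permutation p 0.022, adjusted p 0.022) and r = 0.43 without the 2 farthest animals. Across all pairs the median r was 0.06 in Period 1 and 0.12 in Period 2, so most members did not vary together. The values of 1 animal share a library and its depth, and whether members of a pair share reads was not analysed here.

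**Figure D5:**
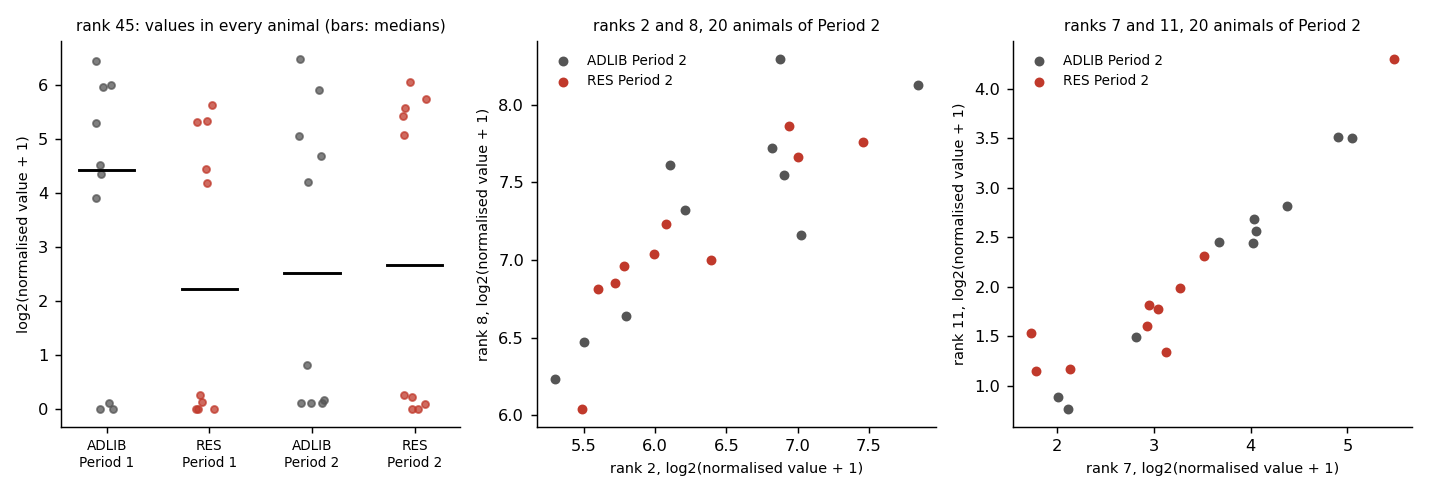
The left panel shows log2(normalised value + 1) of the gene of rank 45 in each animal of the 4 groups with group medians, and the other panels plot ranks 2 against 8 and ranks 7 against 11 in the 20 animals of Period 2, ADLIB in grey and RES in red. The gene of rank 45 has 18 animals near 0 and 22 well above in all groups, and the animals of both diets follow the same line in both pairs (r = 0.85 and 0.96).

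Reads on genes lay between 8656866 and 15520237 per animal. Their percentage of all reads counted was lower in RES than in ADLIB in Period 1 (75.8% ± 1.79 and 78.1% ± 1.07, SD, n = 10) and higher in RES in Period 2 (77.7% ± 1.55 and 76.6% ± 1.33). With this percentage as a covariate in the Period 2 test, a setting added after seeing the data, 4 members were lower at an unadjusted p under 0.05 and 0 were higher. Each library name opens with a number from 1 to 4, whose meaning the sources used here do not give. Within numbers 1, 2, 3 and 4 the median d2 over the members was -0.31, -0.19, -0.10 and -0.05, each below 0 as was the pooled -0.05, and these rest on as few as 1 ADLIB animal. In Period 1 the median over the members within numbers 1, 3 and 4 was -1.33, -1.63 and -1.25, and number 2 held no ADLIB animal.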

How the data were processed

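The authors sequenced single-end libraries of hepatic mRNA, with CASAVA 1.4, TopHat, HTSeq and edgeR and the UMD3.1 build named in the submitters' processing notes, and deposited read counts per Ensembl gene without normalisation. They also deposited normalised signal values, each the count multiplied by a constant for each animal, for genes above 1 CPM in 10 or more libraries of a period. The members and lists were chosen with earlier results of these data known. Period 1 chose the members, so Period 2 alone was tested, with the edgeR 4.0.16 quasi-likelihood test (R 4.3.3, TMM, robust, at least 4 reads in every animal, FDR under 0.05, fold 1.25). Intervals are from limma 3.58.1 on log2(value + 1). DESeq2 1.42.0, the exact test, other filters, scalings, pseudocounts and blocks, and leaving out each animal were alternatives. A covariate, the share of reads falling on genes, was added after seeing the data. Tests were tried on simulated counts. Genes printed by identifier are the 2 members with the lowest and the 2 with the highest d2. Gene lists and cell type markers were fixed but not used, as no identifier matched a symbol. No 2 animals of a group agreed within sampling noise.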

Additional observations from a re-analysis of the deposited data

Results flagged for a closer look

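Values of 8 members, the median over the members and the reads on genes were, in 40 sets of 10 animals, screened for an animal far from the others by Dixon's criterion, which chance meets in about 1 of 20 sets, or 2 of these. In 2 sets an animal stood apart. RES replicate 3 of Period 1 had a normalised value of 16.0 of ENSBTAG00000013928, against 2.81 in the next RES animal. The library of ADLIB replicate 5 in Period 2 was the deepest, at 15520237 reads on genes where the next ADLIB library had 12133068, and without it 7 members in place of 4 were lower in RES at an unadjusted p under 0.05.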

How the results depend on the processing

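The number of members past 50% return was 64 of 68, between 63 and 64 with each animal left out and in the other settings tried, and the median d2 (-0.05) lay between -0.14 and -0.03 with each animal left out and between -0.15 and -0.01 in the others. The number called in Period 2 was 0 in all but 2 settings, being 1 by DESeq2 and 1 by the exact test. The 4 members lower at an unadjusted p under 0.05 became 7 by DESeq2 and 7 by the exact test, and 3 to 8 with an animal left out. That count was 7 without ADLIB replicate 2 or 5, and 8 without RES replicate 6 or 9. The 1 member higher became 3 by the exact test, 2 by total reads as scaling, 0 with the library-name block and 0 with the share of reads falling on genes as covariate. With an animal left out it ran from 0 to 2. It was 0 without ADLIB replicate 7 or RES replicate 9, and 2 without ADLIB replicate 2, 3, 4 or 9 or RES replicate 2, 3, 4, 5, 6 or 7. The cause of these changes was not tested. The d2 of rank 3 turned to -0.16 with the median over the animals, and ran from -0.14 to 0.18 with an animal left out. The interval of d2 excluded 0.5 of d1 in 41 members, and in 34 with the library-name block. Members numbered 92 at d1 of at most -0.9, 47 at -1.1, 94 with a pseudocount of 0.25 and 71 without the CPM limit. With the replicate number as a block, 5 members were lower, 1 was higher and 0 were called, and 42 intervals excluded 0.5 of d1. The labels do not say that the number pairs animals, the correlation of deviations between same-numbered RES and ADLIB animals averaged -0.00, and 0 of 10 RES animals correlated best with their own number. The distance from d2 to either end of its interval had its largest median in members under 10 CPM (0.63). The widest single interval (2.31 to either side, rank 45) was at 23.3 CPM, and the part of depth was not tested.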
